A study of Mus musculus with 12 samples.

Results

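The circRNAs described here were high in mouse blood after 5 min of middle cerebral artery occlusion (MCAO) and near or below the sham level later, once the arrays were scaled to each other. They were chosen from the array values themselves. A circRNA probe that the scanner software called well above background on all 12 arrays became a member if its mean log2 signal lay at least 1.2 above the sham mean at 5 min and no more than 0.5 above it at 3 h and at 24 h. Of 14236 circRNA probes, 8844 were detected on all 12 arrays, and 82 of these, or 0.927%, met the rule. Each probe is printed once on the array, so that each member is 1 spot, though a probe need not be specific to 1 circRNA. A further 187 detected probes also reached 1.2 at 5 min but lay more than 0.5 above sham later: 31 at 3 h alone, 28 at 24 h alone and 128 at both.

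RNA for the arrays came from the whole blood of male Balb/c mice, which the labels record as 8 weeks old and the methods as somewhat older, with 3 mice in each of 4 groups. In the MCAO groups a silicon-coated nylon filament closed the artery for 5 min, 3 h or 24 h, while sham mice had the same operation under isoflurane without the occlusion, so that all groups share the anesthesia and the surgery. The labels give sham as 0 h, so that the time since surgery differs between sham and the MCAO groups together with the occlusion, and the 2 cannot be told apart. Blood came from the heart by puncture and is a mixture of all blood cells, in which fewer cells of a type and less RNA per cell cannot be told apart. The array measures circRNAs only, after digestion of linear RNA with RNase R, so the marker mRNAs of blood cells could not be checked. Lists of blood cell, neuronal, calcium, nucleoside transporter and ribosomal RNA genes held 67 genes. By symbol, 7 of them host a circRNA on the study's list and 0 host a named member. With so few hosts, and no host known for 73 members, the 0 says nothing of cell types. The ribosomal RNA list held 1 symbol, and the member placed in a ribosomal pseudogene, described below, has none. No sequence is shown, because the files hold probe numbers and not the probe or junction sequences.

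Circular RNAs form when a downstream splice site is joined back to an upstream one, which leaves a closed ring with no free end. Lacking ends, they resist exonucleases and tend to last longer than the linear mRNA of the same host gene. In blood they are carried by red cells, platelets and white cells as well as by plasma vesicles, and 1 host gene can give several rings with different junctions.

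At 5 min the 82 members lay between 1.2 and 2.35 log2 units above the sham mean, with a median of 1.34, whereas the median over all detected probes was 0.11. These values chose the members and are given as a description. The lead was uneven between the 3 mice. The members' median lay 1.90 above the sham mean on 5 min replicate 1, 1.02 on replicate 2 and 1.29 on replicate 3. In 69 of the 82 members all 3 arrays of 5 min lay above all 3 sham arrays (24.5% of all detected probes did so), and in 13 the groups overlapped. In 58 members the 5 min arrays lay above all 9 other arrays, against 7.00% of the detected probes, and in 75 they lay above all 24 h arrays, against 25.2%.

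**Figure D1:**
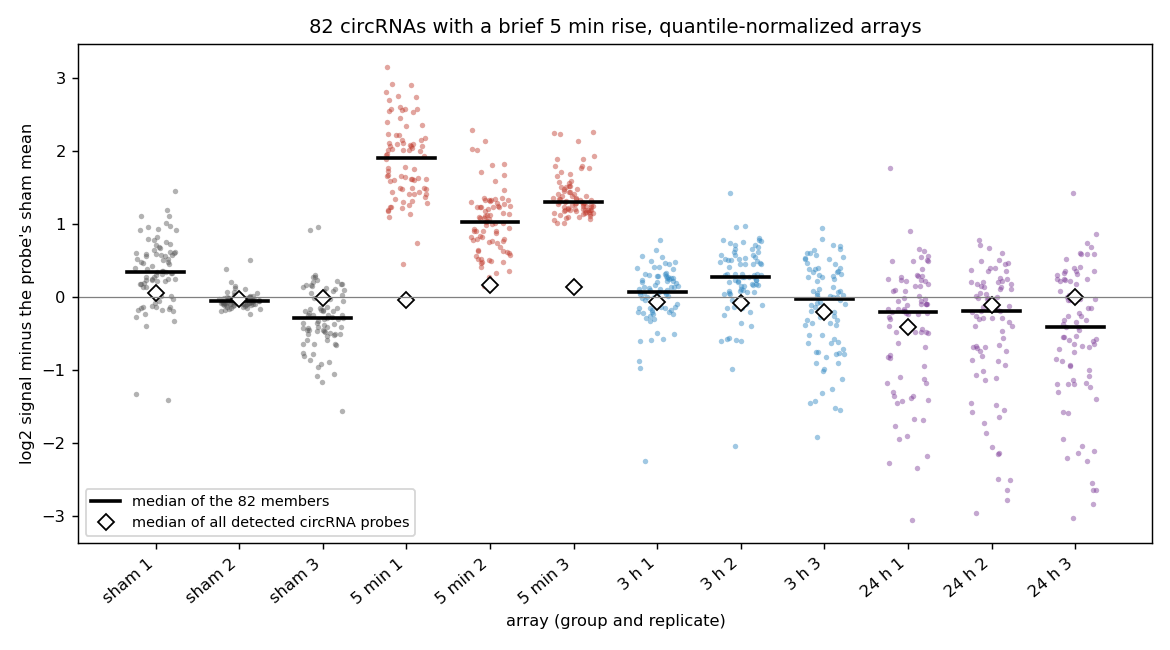
Log2 signal of the 82 members on each of the 12 arrays, minus each probe's sham mean (y axis), by group and replicate (x axis); points are members, black lines their medians and white diamonds the medians of all detected circRNA probes. The members' medians sit at 1.90, 1.02 and 1.29 on the 5 min arrays, and the members spread downward at 24 h.

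The size of the lead fell off steeply among the members: 3 reached 2 log2 units, 21 reached 1.5, and 61 stayed under 1.5. At the edge of the rule, the probes ASCRP4000284, ASCRP4009422 and ASCRP4013538 lay just inside, at 1.209, 1.203 and 1.202. The probes ASCRP4001311, ASCRP4006385 and ASCRP4001931 lay just outside, at 1.185, 1.183 and 1.182, so that the border runs through a continuum of like values. Without 5 min replicate 2, 155 probes met the rule. Of the 82 members, 80 still met it without that array, but 36 did so without 5 min replicate 1, 45 without sham replicate 1 and 40 without sham replicate 3, and 49 with scaling to the 75th percentile. In a limma model of the 4 groups, with Benjamini-Hochberg adjustment over the 8844 detected probes, 43 members were called higher at 5 min at an adjusted p of at most 0.05. The same call was made for 2.95% of all detected probes (4.60% were called lower), and since this contrast chose the members, the count carries no evidence of its own. It also depended on single arrays. It was 0 without sham replicate 2 and 0 without 5 min replicate 3, where 76 and 75 members still had an unadjusted p under 0.05 in the limma model. Of all detected probes, 0 were called higher in each of these settings. It was 2 without sham replicate 3, 7 without 5 min replicate 1, 12 without 3 h replicate 1, 16 without 24 h replicate 2 and 67 without 24 h replicate 1. Over all probes detected there, 7, 22, 42, 55 and 689 were called higher, against 261 with all arrays.

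The scanned signal showed another side of the pattern. The 5 min arrays were the dimmest of the series: the median scanned signal of the detected probes was 177.5, 236 and 273 on the sham arrays and 87.5, 139 and 120.5 on the 5 min arrays. The members did not dim with them. Their median was 335.75, 350 and 377.75 on the sham arrays and 436.75, 364.25 and 410.75 on the 5 min arrays. The ratio of the 5 min mean to the sham mean before scaling was thus 1.09 for the median member, with a range of 0.675 to 2.10, and 0.586 for the median detected probe. In 56 members that ratio exceeded 1, compared with 5.38% of the detected probes. All 3 scanned 5 min values lay above all 3 sham values in 8 members, against 0.543% of all detected probes. They lay below in 0 members and in 57.5% of all detected probes. These are the arrays and the contrast that chose the members. The rule favours probes that did not dim at 5 min, so the scanned values are a description and no separate evidence. The members' median scanned signal was 472, 424.25 and 492.5 on the 3 h arrays and 480.5, 301.5 and 257.25 on the 24 h arrays. That of all detected probes was 283.5, 228 and 350 at 3 h, and 369.5, 250 and 255.5 at 24 h.

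**Figure D2:**
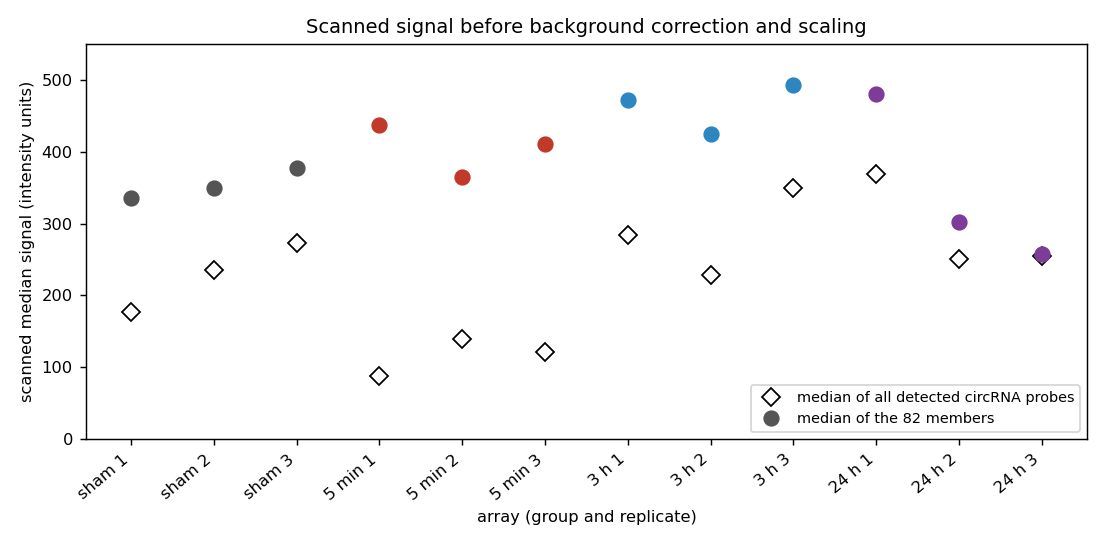
Median scanned signal in intensity units (y axis) of the 82 members (filled circles) and of all detected circRNA probes (white diamonds) on each array (x axis), before background correction and scaling. On the 5 min arrays the detected probes fall to 87.5, 139 and 120.5, while the members stay at 436.75, 364.25 and 410.75.

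Quantile normalization gives every array the same distribution, so a probe that keeps its scanned signal on a dim array ranks higher there. With background correction alone and no scaling between arrays, the members' 5 min difference had a median of 0.14 and ran from -0.20 to 1.44. The median of all detected probes at 5 min was -0.99. At 3 h the unscaled median was 0.41 for the members and 0.21 for all detected probes, and at 24 h -0.21 and -0.03. Without scaling, the members' median was thus higher at 3 h than at 5 min. Relative to the median of all detected probes at 5 min, the members lay 1.13 higher without scaling and 1.22 higher with quantile normalization, in the contrast that chose them. The members' own 5 min mean lay above the sham mean in 58 of 82 without scaling and in 82 of 82 after quantile normalization. The brightness of the arrays moved with the 5 min group, and its part in the result was not tested.

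The members also shared an order of the arrays within groups. 5 min replicate 1, the dimmest array, held the highest of the 3 values in 70 members, compared with 45.3% of detected probes. Sham replicate 1, the dimmest sham array, held the highest sham value in 60 members, compared with 52.4% of detected probes. Both orders together, sham replicate 1 above 2 above 3 and 5 min replicate 1 above 3 above 2, were seen in 40 members and in 15.6% of detected probes. The median correlation between pairs of members over the 12 arrays was 0.76, which describes probes that share arrays and a selection rule. The SD among the 3 arrays of 5 min had a median of 0.44 in the members and 0.29 in all detected probes, and in sham it was 0.35 and 0.30.

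After 5 min, where the rule set only an upper limit, the members ranged from near the sham level to well below it. At 3 h their differences from sham ran from -2.07 to 0.49 with a median of 0.10, and 75 of 82 lay within 0.5 of sham, compared with 58.9% of all detected probes. At 24 h they ran from -2.60 to 0.48 with a median of -0.30. At that time 51 members lay within 0.5 of sham (37.8% of detected probes did), 17 lay at least 1 below it (18.7% did) and 6 at least 2 below it. The shape high at 5 min and within 0.5 of sham at both later times fitted 50 members, and 31.8% of detected probes lay within 0.5 at both later times. The rule keeps members, but not other probes, from lying more than 0.5 above sham later, so the shares within 0.5 are a description. In 68 members the 24 h mean lay below the 3 h mean, against 52.8% of all detected probes.

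Members were called lower at 24 h in 15 cases (17.6% of detected probes were) and at 3 h in 1 case (0.905%), that of mmu_circRNA_38760. Calls in the higher direction numbered 0 at 3 h and 0 at 24 h in the limma model, where the shares over all detected probes were 4.32% and 15.7%, and 0 members had an unadjusted p under 0.05 in that direction at either time; with array weights in the model, 23 were called higher at 3 h and 15 at 24 h. The rule caps both contrasts from above, so these counts are a description. The 24 h arrays and 3 h replicate 3 were scanned at another time than the sham, 5 min and remaining 3 h arrays, and at 24 h scan and group cannot be told apart. With the scan as a term of the model 1 member was called at 24 h, and with the scan as a random block 7. Without sham replicate 2 or without 24 h replicate 2, 9 were called. For these alternatives, array weights included, the shares over all detected probes at 3 h and 24 h were not counted. The counts therefore cannot be read as particular to the members. Over the 3 h arrays scanned together with sham, the members' median was 0.16, and 12 of them lay more than 0.5 above sham, up to 1.1.

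**Figure D3:**
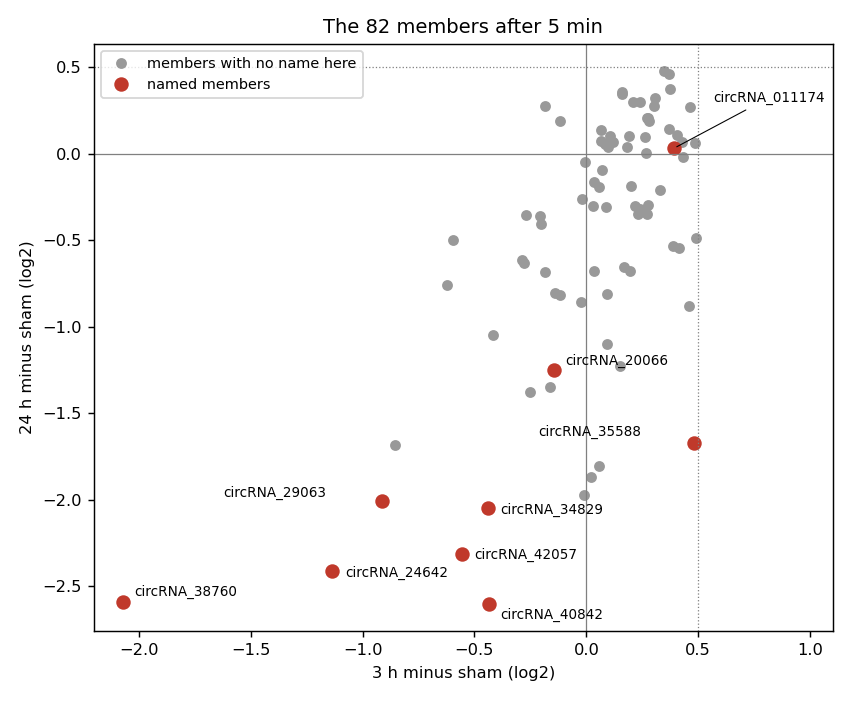
Difference from sham at 3 h (x axis) and at 24 h (y axis) of each member, in log2 units, with named members in red; dotted lines mark the limit of 0.5 set by the rule. Most members lie close to 0 at both times, and 8 of the 9 named members lie at least 1 below sham at 24 h.

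Names could be given to 9 members. The study's list of circRNAs that it called different from sham on these same arrays holds 903 circRNAs, each of which was matched to 1 probe by its values, and the other 73 members are not on it. The named members are therefore a selected subset: 8 of 9 lay at least 1 below sham at 24 h, but only 9 of the 73 others did. In the limma model 5 of the 9 were called higher at 5 min (2.95% of all detected probes were), and those of Corin, Tub, Fam186b and Klhl29 were not. Of the 9, 6 are exonic, 2 are listed as sense overlapping and 1 as intronic. Coordinates are those of mouse build mm10 (GRCm38), and genes were checked against the RefSeq annotation GRCm38.p6.

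The largest difference at 5 min belonged to mmu_circRNA_011174 (chromosome 17, 39846503 to 39846663, minus strand). Sham arrays read 6.30, 5.36 and 5.13 (log2 signal), those of 5 min 8.35, 7.62 and 7.85, those of 3 h 5.91, 6.37 and 5.68, and those of 24 h 6.50, 5.34 and 5.05. All 5 min values lay above every other array, and the 3 other groups overlapped. The 5 min difference was 2.35 with a limma standard error (SE) of 0.40, followed by 0.39 at 3 h and 0.03 at 24 h. The list gives it no host gene. The place lies inside Rn18s-rs5, a pseudogene related to the RNA of the small ribosomal subunit, and since near-identical ribosomal copies are spread over the genome, the source of the signal is uncertain. Its scanned signal was weak but also higher at 5 min than in sham, at 81, 59 and 54 in sham and 131, 140 and 137 at 5 min. All later scanned values lay above sham too, at 93, 105 and 156 at 3 h and 239, 136 and 128 at 24 h. Those of 3 h replicate 3 and of 24 h come from the other scan, whose negative controls were brighter.

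Another member whose scanned signal was higher on all 5 min arrays than on all sham arrays was mmu_circRNA_20066 (chromosome 1, 52522221 to 52523151, plus strand). Its scanned signal at 3 h also lay above all sham arrays, with 6475, 5359 and 5729 against 4642, 5022 and 5101. On the log2 scale the sham arrays held 12.74, 12.20 and 11.85, the 5 min arrays 14.99, 13.50 and 14.40, the 3 h arrays 12.05, 12.06 and 12.26, and the 24 h arrays 10.88, 10.79 and 11.38. The 5 min arrays lay above and the 24 h arrays below every sham array. The differences were 2.03 at 5 min, -0.14 at 3 h and -1.25 at 24 h, each with an SE of 0.38. The list names the host Gm553, but in the annotation the place lies outside that gene and overlaps Rps27a-ps1, a pseudogene of a ribosomal protein fused to ubiquitin. Transcripts of the parent Rps27a and its other copies are near-identical in sequence, so the source of this signal is uncertain too.

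The intronic member mmu_circRNA_35588 lies within the long noncoding RNA Gm20754 (chromosome 3, 73277865 to 73339144, plus strand). From a log2 signal of 8.43, 8.83 and 9.04 in the sham mice it stood at 10.83, 11.04 and 10.99 in the 5 min mice, 9.54, 10.19 and 8.00 in the 3 h mice, and 7.41, 7.22 and 6.65 in the 24 h mice. The 5 min values stood close together and above all others, and the 24 h values were all the lowest. The differences were 2.19 at 5 min, 0.48 at 3 h and -1.67 at 24 h, with an SE of 0.46. At 3 h the arrays disagreed: the replicates scanned with sham averaged 1.1 above sham, beyond the limit of the rule, and replicate 3, scanned later, lay below all sham values.

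The largest swing from 5 min to 24 h was that of the exonic mmu_circRNA_40842 from Adipor2 (chromosome 6, 119361827 to 119365380, minus strand), a receptor of the fat-cell hormone adiponectin. The 3 sham mice had log2 signals of 11.50, 11.03 and 10.72, the 5 min mice 12.83, 12.90 and 12.97, the 3 h mice 10.93, 11.39 and 9.62, and the 24 h mice 8.02, 8.58 and 8.84. The 5 min values were tight and the 24 h values lay more than 1 log2 unit below every sham array. The differences were 1.82 at 5 min, -0.43 at 3 h and -2.60 at 24 h, with an SE of 0.42. Its scanned signal was 2112, 2327.5 and 2364.5 in sham and 2146, 3677.5 and 3059 at 5 min, so that the increase there rested on replicates 2 and 3. At 3 h the scanned signal was 2925, 3351.5 and 1152.

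The exonic mmu_circRNA_34829 comes from Edem2 (chromosome 2, 155708931 to 155726674, minus strand), which helps to direct misfolded glycoproteins of the endoplasmic reticulum to degradation. Signals on the log2 scale were 12.99, 12.69 and 12.47 for the sham arrays, 14.78, 13.47 and 14.22 for 5 min, 12.22, 12.10 and 12.51 for 3 h, and 11.35, 10.07 and 10.58 for 24 h. The 5 min arrays lay above and the 24 h arrays below all sham arrays. The differences were 1.44 at 5 min, -0.44 at 3 h and -2.05 at 24 h, with an SE of 0.39. Before scaling its signal hardly differed, at 5731, 6949 and 7742 in sham and 9214, 5446 and 7505 at 5 min.

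The circRNA from Corin, whose protein is a membrane protease that activates atrial natriuretic peptide, was the only member below sham by over 2 log2 units at 3 h already. This exonic circRNA, mmu_circRNA_38760 (chromosome 5, 72329611 to 72343117, minus strand), read 7.83, 7.98 and 8.25 on the sham arrays (log2 signal), 9.90, 8.65 and 9.14 on those of 5 min, 5.77, 5.98 and 6.10 on those of 3 h, and 6.07, 5.23 and 4.99 on those of 24 h. The 5 min values lay above and all later values below the sham values. The differences were 1.21 at 5 min, -2.07 at 3 h and -2.59 at 24 h, with an SE of 0.36. It was not called at 5 min (limma adjusted p = 0.0547). Its 5 min lead was absent before scaling, where the unscaled difference was -0.04.

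The exonic mmu_circRNA_42057 comes from Tub (chromosome 7, 109020516 to 109021029, plus strand), the tubby gene, which acts in neurons of the feeding circuits and whose loss gives late-onset obesity in mice. In log2 units the sham mice had 9.65, 9.42 and 9.20, the 5 min mice 10.68, 10.66 and 10.65, the 3 h mice 9.37, 9.06 and 8.16, and the 24 h mice 8.29, 6.46 and 6.58. The 5 min arrays, with an SD of 0.02, lay above all sham arrays, and the 24 h arrays lay below them. It was not called at 5 min (limma adjusted p = 0.0991) but was called lower at 24 h (limma adjusted p = 0.00214). The differences were 1.24, -0.56 and -2.31 with an SE of 0.46, and the unscaled 5 min difference was -0.10.

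In the remaining pair the 5 min and sham arrays overlapped. The exonic mmu_circRNA_29063 from Fam186b (chromosome 15, 99278688 to 99285665, minus strand) read 10.35, 9.75 and 9.28 on the sham arrays (log2 signal), 12.03, 10.13 and 10.96 on those of 5 min, 9.22, 9.19 and 8.24 on those of 3 h, and 7.88, 7.64 and 7.84 on those of 24 h. The exonic mmu_circRNA_24642 comes from Klhl29, a gene of the kelch-like family (chromosome 12, 5137422 to 5140708, minus strand). Here the sham arrays read 13.97, 12.64 and 10.95, the 5 min arrays 13.88, 13.59 and 13.78, the 3 h arrays 11.63, 11.52 and 10.99, and the 24 h arrays 10.33, 10.01 and 9.97. The overlap came from 5 min replicate 2 in mmu_circRNA_29063 and from sham replicate 1 in mmu_circRNA_24642, and in both the 24 h arrays lay below all sham arrays. Their 5 min differences were 1.24 and 1.23 with SEs of 0.46 and 0.55, and neither was called (limma adjusted p = 0.101 and 0.159). At 24 h they lay at -2.01 and -2.41. For mmu_circRNA_24642 the sham mean rests on a spread of 1.51 (SD, n = 3), more than its 5 min difference.

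**Figure D4:**
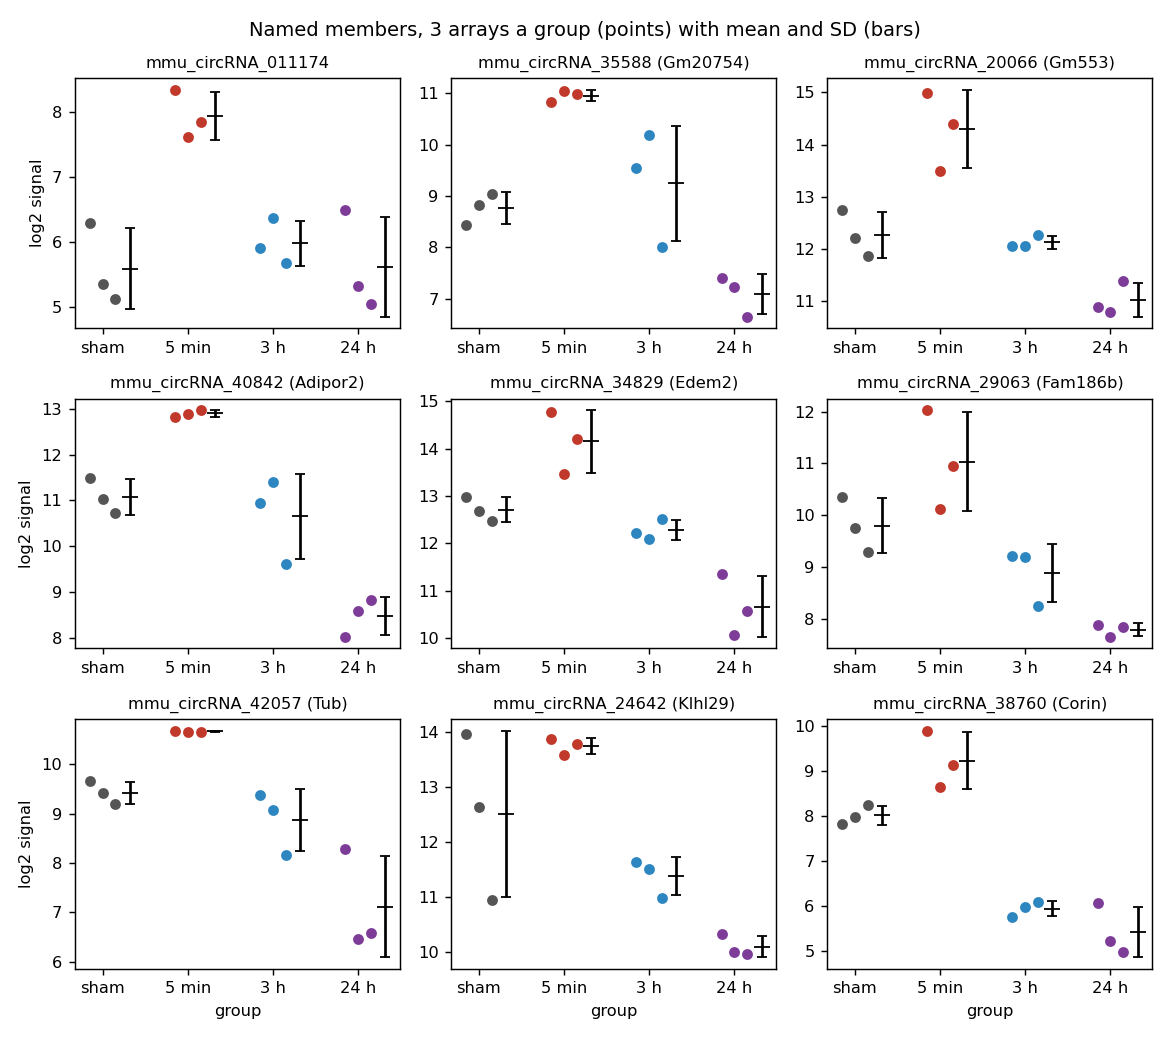
Log2 signal (y axis, scaled separately in each panel) of the 9 named members in the 4 groups (x axis); points are the 3 arrays of a group in the order of their replicate numbers, and bars show mean and SD. In 7 panels all 5 min points lie above all sham points, and in 8 panels all 24 h points lie below them.

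Among the members without a name, the largest 5 min differences were those of ASCRP4004394 and ASCRP4006918, at 2.00 and 1.98 with an SE of 0.49 each. ASCRP4004394 had 8.09, 7.29 and 7.07 in sham and 10.01, 8.70 and 9.72 at 5 min, and was close to sham later, at -0.02 and -0.26. ASCRP4006918 had 9.78, 8.72 and 7.95 in sham and 11.72, 9.97 and 10.70 at 5 min, so that only 0.19 separated the groups. Next came ASCRP4009567 at 1.90, with 9.54, 7.22 and 8.10 at 5 min over 6.62, 6.21 and 6.34 in sham. Its 5 min arrays were uneven, and without replicate 1 of 5 min the difference was 1.28. ASCRP4007688 was alike in its uneven 5 min arrays, with 10.08, 8.18 and 8.98 over 7.60, 7.36 and 7.21. In ASCRP4011055 replicate 1 was instead the lowest of the 5 min arrays, with 10.27, 10.93 and 10.61 over 9.71, 8.90 and 8.15 in sham.

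ASCRP4011336 followed the up-then-down course of the Adipor2 and Gm20754 circRNAs. Log2 signals of 11.69, 11.16 and 10.87 on the sham arrays compare with 13.25, 12.95 and 13.17 on those of 5 min, 11.69, 11.99 and 10.11 on those of 3 h, and 9.94, 9.59 and 8.59 on those of 24 h. The differences were 1.89, 0.02 and -1.87 with an SE of 0.48. Above all sham arrays at 5 min and below all of them at 24 h were 16 members, 6 of them named, whereas 2.89% of detected probes had this pattern. Below all sham arrays at 24 h were 20 members, compared with 24.1% of detected probes.

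The weakest separation was found in ASCRP4008435, ASCRP4009962 and ASCRP4012483, where the lowest 5 min array lay 0.75, 0.67 and 0.39 log2 units inside the sham range. In ASCRP4008435 the sham arrays held 12.05, 10.90 and 9.90 and the 5 min arrays 13.12, 11.30 and 12.30. In ASCRP4009962 the sham values were 10.52, 9.38 and 8.33 and the 5 min values 9.85, 11.55 and 11.07, with the dimmest 5 min array now the lowest. This probe also held the 1 member spot that the scanner software marked as an outlier, and no member spot was saturated. ASCRP4012483 had 11.00, 9.93 and 9.03 in sham and 12.79, 10.61 and 11.75 at 5 min, which gave a mean difference of 1.73 in spite of the overlap.

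Other circRNAs of the same host genes served as measurements outside the rule, although the list that names them was chosen on these arrays. Of 4 listed circRNAs in Gm20754, 3 begin at the same base, 73277865, and end at 73333103, 73339144 and 73341175. The neighbours of the member behaved like it. mmu_circRNA_35587 had 8.00, 8.52 and 8.72 in sham and 10.42, 10.76 and 10.71 at 5 min, a difference of 2.22 (SE 0.37, limma adjusted p = 0.0127). mmu_circRNA_35589 had 8.52, 9.17 and 9.48 in sham and 10.99, 11.15 and 11.07 at 5 min, a difference of 2.01 (SE 0.38, limma adjusted p = 0.0153). At 24 h they lay at -0.94 (limma adjusted p = 0.0669) and -1.41 (limma adjusted p = 0.013). They missed the rule only at 3 h, with 0.95 and 0.53. Rings that share a splice site share probe sequence on that side of the junction, and the 3 signals cannot be told apart from signals of a common target.

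The fourth circRNA of the gene took another course. mmu_circRNA_35586 (73269612 to 73341175) starts further upstream and ends with mmu_circRNA_35589. The sham mice had log2 signals of 7.05, 6.47 and 6.23, the 5 min mice 9.09, 6.85 and 7.85, the 3 h mice 8.69, 9.10 and 9.02, and the 24 h mice 10.17, 9.67 and 9.29. It was called higher at 3 h, by 2.36 (SE 0.47, limma adjusted p = 0.0112), and at 24 h, by 3.13 (limma adjusted p = 0.000356), while 5 min overlapped sham. Its direction at 24 h is opposite to that of the member mmu_circRNA_35588, and the difference between them was not tested.

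Corin gave the same contrast between rings of 1 gene. mmu_circRNA_38761 (chromosome 5, 72353869 to 72360758, minus strand) shares no junction with the member. Sham arrays gave 8.46, 8.46 and 8.41 (log2 signal), the 5 min arrays 9.57, 7.67 and 8.29, the 3 h arrays 11.54, 11.89 and 10.38, and the 24 h arrays 11.93, 11.88 and 10.54. It did not differ detectably at 5 min (0.07, SE 0.53, limma adjusted p = 0.942) and was called higher at 3 h, by 2.83 (limma adjusted p = 0.00779), and at 24 h, by 3.00 (limma adjusted p = 0.000994). The member mmu_circRNA_38760 lay at -2.07 and -2.59 at those times. The scanned signal showed the same directions at 3 h. mmu_circRNA_38761 had 298.5, 424.5 and 487 in sham and 4421, 4731 and 1754 at 3 h. The member had 209.5, 306 and 434 in sham and 87.5, 83 and 183 at 3 h. In both, the value of 3 h replicate 3 comes from the other scan, whose negative controls were brighter. The difference between the 2 was not tested.

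**Figure D5:**
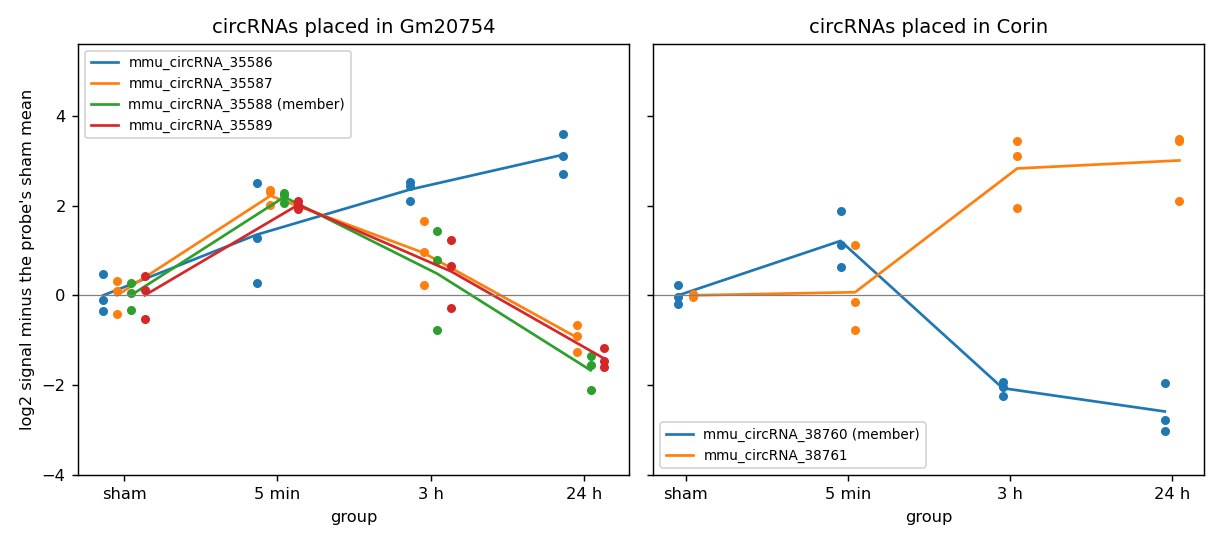
Log2 signal minus each probe's sham mean (y axis) in the 4 groups (x axis) for the listed circRNAs of Gm20754 (left) and Corin (right); points are single arrays and lines join group means. In each gene a member that lay above sham at 5 min and below it at 24 h stands beside a ring that lay above sham at 24 h, by 3.13 in Gm20754 and 3.00 in Corin.

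Close to mmu_circRNA_011174 on chromosome 17, the list places mmu_circRNA_011696 (39844601 to 39844697) and mmu_circRNA_009370 (39844697 to 39845062), both on the plus strand. Neither shared its 5 min lead. mmu_circRNA_011696 had 13.51, 12.52 and 11.75 in sham and 14.08, 11.52 and 12.71 at 5 min (0.17, SE 0.55, limma adjusted p = 0.852) and was called higher at 24 h, by 2.40 (limma adjusted p = 0.00487). mmu_circRNA_009370 had 14.97, 14.00 and 12.47 in sham and 12.94, 11.59 and 12.31 at 5 min (-1.54, SE 0.76, limma adjusted p = 0.194) and was called lower at 24 h, by -2.35 (limma adjusted p = 0.0294). In sham and at 5 min both of these neighbouring probes scattered by 0.68 to 1.28 log2 units (SD, n = 3). The annotation holds no gene at either place. Over the 6 circRNAs of shared host genes or locus and the 3 time points, 9 calls were made, and 4 without sham replicate 2.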

How the data were processed

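The groups came from the sample labels. Per the file headers, the authors deposited Agilent Feature Extraction 11.0.1.1 output for each array, with linear intensities of each spot and its local background, and they also deposited a table of log2 values, quantile normalized between arrays, in which 2927 of 15712 spots hold no value. Its column medians run from 6.80 to 6.84, and each column correlated best with its own array (r 0.999 for each). In R 4.3.3, limma 3.58.1 removed the local background from the spot medians by normexp with an offset of 0. All spots of the arrays were then quantile normalized and put on the log2 scale, with outlier spots kept. The 4 groups were fitted together in limma (residual df 8), with a mean-variance trend, two-sided moderated tests and Benjamini-Hochberg adjustment over the 8844 detected probes. The number of arrays limits the precision.

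The members, the gene lists and the tests were chosen with earlier results of these data known. Named are every member on the study's list, the 10 largest 5 min differences without overlap, the 3 probes on each side of the 5 min limit, the 3 lowest at 24 h, the 3 with most overlap, and circRNAs of the same host gene or locus. The list's entries were matched to probes by mean and log2 fold change within 6e-04. Scan times in the headers define the scans. The alternatives were other background corrections, scalings, filters, scan terms, a replicate block, single arrays left out, array weights (statmod 1.5.0) and the rule's limits.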

Additional observations from a re-analysis of the deposited data

Results flagged for a closer look

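In 7 members described above, 6 with a circRNA name and the probe ASCRP4011336, every 5 min array lay above and every 24 h array below every sham array, so that the effects at the 2 times run in opposite directions; the difference was not tested, and the rule that chose the members favours it. The 24 h mean minus the 5 min mean, on the log2 scale, was -4.42 for mmu_circRNA_40842 (Adipor2), -3.86 for mmu_circRNA_35588 (Gm20754), -3.80 for mmu_circRNA_38760 (Corin), -3.75 for ASCRP4011336, -3.55 for mmu_circRNA_42057 (Tub), -3.49 for mmu_circRNA_34829 (Edem2) and -3.28 for mmu_circRNA_20066. The 24 h arrays were scanned at another time than the 5 min and sham arrays.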

How the results depend on the processing

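The count of 82 members became 49 without background subtraction, 48 with a normexp offset of 50 and 51 with cyclic loess; it was 193 and 21 with a 5 min limit of 1.0 and 1.5, 25 with a later limit of 0, and 59 to 155 with single arrays left out (155 without 5 min replicate 2). Without scaling between arrays, an alternative chosen after seeing the data, it was 0, the members' median 5 min difference was 0.14 and 1 member was called at 5 min; with single arrays left out that median was 1.19 to 1.56. Members called higher at 5 min numbered 0 to 67 with single arrays left out, where 0 to 689 of all detected probes were called higher. With array weights, which ran from 0.0879 to 19.6, 82 members were called higher, and over all probes 4356 were called higher and 3135 lower. Members called at 3 h numbered 1 to 2 with single arrays left out and 30 with array weights; at 24 h they numbered 9 to 17, 49 with array weights, 1 with the scan as a fixed term and 7 as a random block. The shares over all detected probes at these times were not counted under the alternatives. For circRNAs of shared host genes or locus, the 9 calls became 4 to 11 and, with array weights, 16. The cause was not tested.

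The 5 min difference of the 21 members given singly (by name or probe number) took 609 values under the alternatives. Of these, 585 moved by less than 1 SD, pooled over the member's sham and 5 min arrays, 16 were lower by more and 1 higher. The other filters, the scan terms and the replicate block cannot change this difference, so the 585 is no measure of stability. The 7 that changed sign did so without scaling between arrays: -0.081 for ASCRP4008435, -0.10 for mmu_circRNA_29063, -0.10 for mmu_circRNA_42057, -0.20 for mmu_circRNA_24642, -0.039 for mmu_circRNA_38760, -0.081 for ASCRP4000284 and -0.10 for ASCRP4013538. Of all calls at 5 min, 39.1% were in the higher direction with quantile normalization, 58.5% with the 75th percentile, 50% with the processed signal and 0.0264% without scaling, and the median of all detected probes was 0.11, 0.22, 0.18 and -0.99. The replicate numbers do not pair the mice: 7 of 18 same-numbered pairs of arrays correlated above 0.1 in their deviations (-0.46 to 0.49, and -0.50 to 0.53 for pairs of different numbers). With the replicate block, 46 members were called at 5 min, and no call count moved by over 1.5 times.

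With the arrays scanned with sham alone, the rule and the 24 h calls could not be computed. Signals near background limit the dimmest members, and 3 arrays a group limit all.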
